A study of Mus musculus with 7 samples.

Results

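Expression of 10 genes of the cellular oxygen-sensing pathway was followed in kidneys of mice with cystinuria. They were picked as a list of names, with earlier results of these data known, and comprise the hypoxia-inducible factor genes Hif1a and Epas1, the genes of the machinery that degrades the factors (Egln1, Egln3 and Vhl), and 5 genes known as targets of the factors (Vegfa, Adm, Bnip3, Ankrd37 and Pdk1). These 10 genes are among 45706 genes in the deposited tables, and 9 of the 10 had enough counts to enter the test, which covered 15399 genes. All 7 kidneys came from Slc7a9-/- males at 6 months of age. The product of Slc7a9 takes cystine back up in the proximal tubule, and mice without it excrete cystine. The untreated group had 3 mice. The treated group had 4 mice, which received L-ergothioneine, a dietary antioxidant that carries sulfur, in the drinking water at 16 mg/kg/day. No wild-type kidney was analysed here, so each value describes treatment within the knockout. Total RNA of frozen kidney was sequenced, 1 library per mouse, and p-values measure the spread between these kidneys.

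The hypoxia-inducible factors are transcription factors made of an oxygen-regulated alpha subunit, such as the products of Hif1a and Epas1, and a stable partner encoded by Arnt. When oxygen is available, the prolyl hydroxylases encoded by the Egln genes mark the alpha subunit, and the ubiquitin ligase that contains the Vhl product sends it to degradation. Control therefore acts largely on protein, which RNA levels do not show. In kidney, HIF1A is known mainly from tubule cells and EPAS1 from endothelial and interstitial cells, among them the cells that make erythropoietin.

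The libraries held between 14843882 and 19791577 counts. Genes for short non-coding RNA took 12.2% and 16.2% of TPM (a length-corrected share of a library's transcripts) in untreated libraries 1 and 2, against 48.7% in untreated library 3 and 37.5% to 48.5% in the treated libraries. For this reason differences were tested on counts, where the same genes took 0.428% to 2.79% of a library, and TPM was used for levels only after those genes were left out. The kidney label fitted its defining markers: Lrp2 of the proximal tubule had at least 106046 counts and Umod of the thick ascending limb at least 39852 in each library. The 6 tested markers of adipocytes and brown fat all fell. All 8 markers of that list, tested or not, had a summed level of 52.4 to 64.0 CPM (counts scaled for library size) in untreated kidneys. In treated kidneys it was 12.04 to 20.22 CPM. Ucp1, which defines brown fat, had 258 to 438 counts in untreated kidneys and 0, 12, 30 and 18 in treated kidneys, and Cidea was at 0 in treated libraries 1 and 3. The part of these cells in the results below was not tested.

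Of the 9 hypoxia genes tested, 1 fell with treatment, Bnip3, and none rose at an adjusted p under 0.05 in edgeR's quasi-likelihood test with Benjamini-Hochberg adjustment. Over all genes tested, 7.16% were called in either direction, 3.58% as higher and 3.57% as lower. At an unadjusted p under 0.05 in edgeR the members gave 1 higher gene, Egln1, and 1 lower gene. Here and below, the share of all tested genes at that unadjusted threshold was not counted, so such counts have no background. At an adjusted p under 0.05, DESeq2 and limma-voom each gave 0 higher and 1 lower member. Over all 15399 genes they called 1183 and 1068. The median log2 fold change of the members was -0.09, and that of all tested genes was -0.0031. With untreated libraries 1 and 2 left out, 1 untreated library stood against 4 treated ones, and its spread was assumed to be that of the treated group. In that fit, here and below, a lost call carries little weight; no member was called, and their median was 0.03. Groups did not overlap in 2 of the 9 members, Bnip3 and Egln1, beside 18.6% of all genes tested, 9.46% with treated kidneys higher and 9.11% with treated kidneys lower. In bulk tissue, fewer cells of a type and less RNA per cell cannot be told apart.

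**Figure D1:**
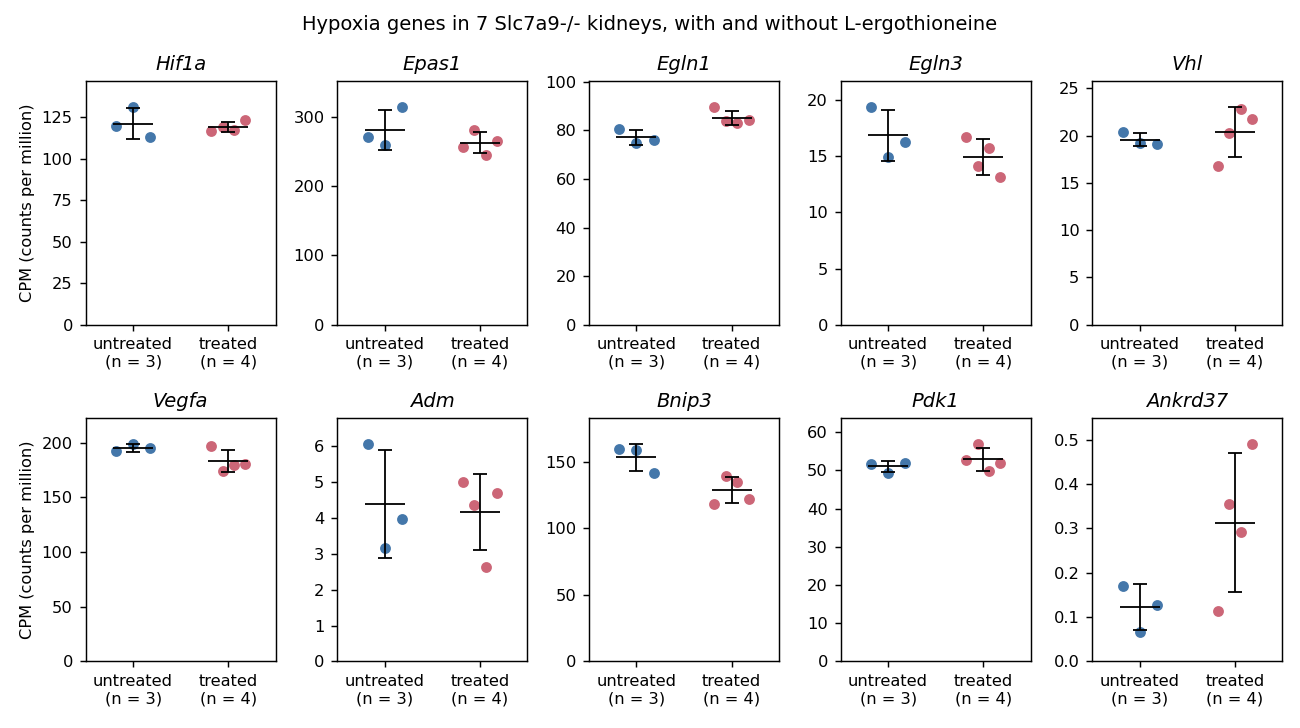
CPM of the 10 hypoxia genes in each of the 7 kidneys, with 1 panel per gene and a separate axis for each panel starting at 0. Points are single libraries, and the dash with bars gives the mean and SD of 3 untreated or 4 treated mice; only in Bnip3 and Egln1 do the points of the groups stand apart.

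Length-corrected levels put the 10 genes in nearly the same order in every kidney. Bnip3 and Vegfa shared the first 2 places, Bnip3 being the higher in 4 of 7 libraries, at 161 ± 18.2 and 155 ± 15.9 TPM (SD, n = 7, short non-coding genes left out). Epas1 followed at 84.1 ± 11.03 TPM, Hif1a at 47.5 ± 2.61 TPM and Egln1 at 39.4 ± 2.92 TPM. Each of these 3 genes held 1 fixed rank in all 7 libraries, and so did Pdk1, Adm and Ankrd37. Pdk1 stood at 20.0 ± 1.48 TPM, Vhl at 12.5 ± 1.47 TPM and Egln3 at 10.3 ± 1.27 TPM. The last pair did not separate, since Vhl was the higher in 5 of 7 libraries. Adm, at 6.04 ± 1.63 TPM, and Ankrd37, at 0.621 ± 0.395 TPM, were lowest. Within a library, Vegfa was 18.7 to 37.5 times as high as Adm, the other secreted factor, and 1.57 to 2.02 times as high as Epas1.

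**Figure D2:**
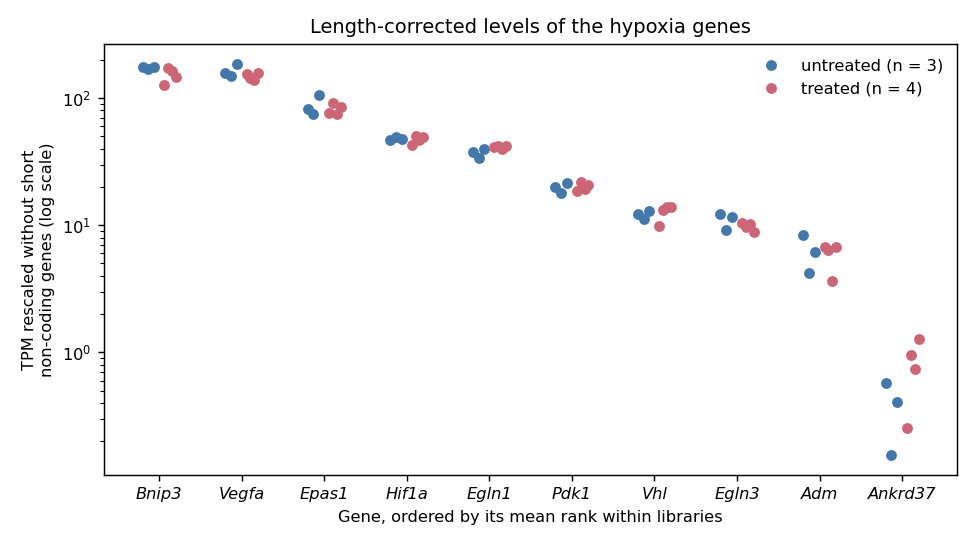
TPM of each hypoxia gene in the 7 libraries on a log scale, after short non-coding genes were left out, with genes ordered by mean rank within libraries. Bnip3 and Vegfa lie near 160 at the left and Ankrd37 under 2 at the right, and untreated and treated points largely share their ranges.

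The factor genes themselves did not pass the test. Hif1a (ENSMUSG00000021109, chromosome 12, 73901375 to 73947530 on the plus strand, GRCm38) stood at 119, 131 and 113 CPM in the untreated kidneys and at 117, 119, 117 and 123 CPM in the treated ones. All 4 treated values lie inside the untreated range. Its log2 fold change was -0.03 ± 0.06 (SE), with a 95% interval of -0.15 to 0.10 and an adjusted p of 0.874 (edgeR). Intervals here and below cover 1 gene at a time and are not adjusted for the number of genes. Epas1 (ENSMUSG00000024140, chromosome 17, 86753700 to 86833410, plus strand) had 271, 259 and 314 CPM in untreated and 257, 282, 246 and 266 CPM in treated kidneys. Untreated library 3 was the highest of the 7, and the groups overlapped. The log2 fold change of Epas1 was -0.10 ± 0.07, with an interval of -0.25 to 0.05 and an adjusted p of 0.472. Per length, Epas1 was higher than Hif1a in all 7 libraries, by 1.52 to 2.23 times with a median of 1.74.

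Among the oxygen-sensing enzymes, Egln1 came closest to the threshold without passing it. Egln1 (ENSMUSG00000031987, chromosome 8, 124908587 to 124949324, minus strand) encodes the main prolyl hydroxylase of the factors. It stood at 80.7, 74.8 and 76.1 CPM in untreated kidneys and at 89.6, 83.9, 83.2 and 84.5 CPM in treated ones. Every treated value was above every untreated one, by a narrow margin. The log2 fold change was 0.14 ± 0.06, with an interval of 0.02 to 0.27, an unadjusted p of 0.0248 and an adjusted p of 0.160 (edgeR), so it did not pass. Egln3 (ENSMUSG00000035105, chromosome 12, 54178981 to 54203860, minus strand) encodes a hydroxylase that is itself known to be induced by the factors. Its values were 19.4, 14.9 and 16.3 CPM without and 16.7, 14.1, 15.7 and 13.2 CPM with treatment. These overlapped, with a log2 fold change of -0.18 ± 0.11, an interval of -0.42 to 0.06 and an adjusted p of 0.397.

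As a description only, the ratio of Egln1 to Egln3 in TPM was 3.06, 3.68 and 3.44 in untreated kidneys and 3.95, 4.38, 3.89 and 4.71 in treated ones. The ratio compares both genes within a library and is independent of library scaling. Its group means were 3.39 ± 0.314 (SD, n = 3) and 4.23 ± 0.386 (SD, n = 4), and the groups did not overlap. The ratio was set up after single values had been seen and was not tested. Egln1 alone also did not overlap, so the ratio is not a separate result. Taken in the same way, Epas1 to Hif1a was 1.74, 1.52 and 2.23 in untreated and 1.78, 1.81, 1.63 and 1.70 in treated kidneys. Bnip3 to Bnip3l was 1.48, 1.33 and 1.05 in untreated and 0.988, 1.27, 1.20 and 1.18 in treated kidneys. In both of these ratios the groups overlapped. Egln2, the other prolyl hydroxylase gene, was close to Egln1 per length, with a median Egln1 to Egln2 ratio of 0.983. Its log2 fold change was -0.01 ± 0.07 with an adjusted p of 0.961.

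Vhl (ENSMUSG00000033933, chromosome 6, 113623959 to 113631633, plus strand), which encodes the part of the ubiquitin ligase that recognises hydroxylated alpha subunits, had an SD of 0.714 CPM among untreated and 2.64 CPM among treated kidneys. It had 20.4, 19.2 and 19.1 CPM in untreated and 16.7, 20.2, 22.8 and 21.8 CPM in treated libraries. Treated library 1 was the lowest of the 7 and treated library 3 the highest. The log2 fold change was 0.06 ± 0.10, with an interval of -0.16 to 0.27 and an adjusted p of 0.822 (edgeR).

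The target genes for secreted factors also did not pass. Vegfa (ENSMUSG00000023951, chromosome 17, 46016993 to 46032369, minus strand) encodes the main growth factor of blood vessel endothelium. It had 192, 199 and 195 CPM in untreated and 197, 174, 179 and 181 CPM in treated kidneys. The other 3 treated kidneys lay below all untreated ones, and treated library 1 lay among them. The log2 fold change was -0.10 ± 0.06, with an interval of -0.22 to 0.02 and an adjusted p of 0.378 (edgeR). Adm (ENSMUSG00000030790, chromosome 7, 110627661 to 110629820, plus strand) encodes the vasodilator peptide adrenomedullin. With 6.06, 3.15 and 3.98 CPM untreated and 4.996, 4.35, 2.63 and 4.69 CPM treated, it had the widest relative spread of the tested members. Its log2 fold change was -0.09 ± 0.25, with an interval of -0.61 to 0.44 and an adjusted p of 0.898 (edgeR). The CV between kidneys was 34.2% in the untreated and 25.4% in the treated group. The interval holds changes in either direction, so no direction can be given for Adm.

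None of the 9 receptor genes for these ligands was called in either direction by edgeR, DESeq2 or limma-voom, and 0 of 9 had an unadjusted p under 0.05. Kdr, the main signalling receptor for VEGF, had a log2 fold change of 0.10 and an adjusted p of 0.481. Calcrl, the receptor that binds adrenomedullin together with a RAMP protein, had -0.13 and an adjusted p of 0.527. The 9 endothelial markers, which include Kdr and Flt1, gave 0 calls too and 0 at an unadjusted p under 0.05. Their summed level was 538 to 603 CPM in untreated and 544 to 578 CPM in treated kidneys.

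**Figure D3:**
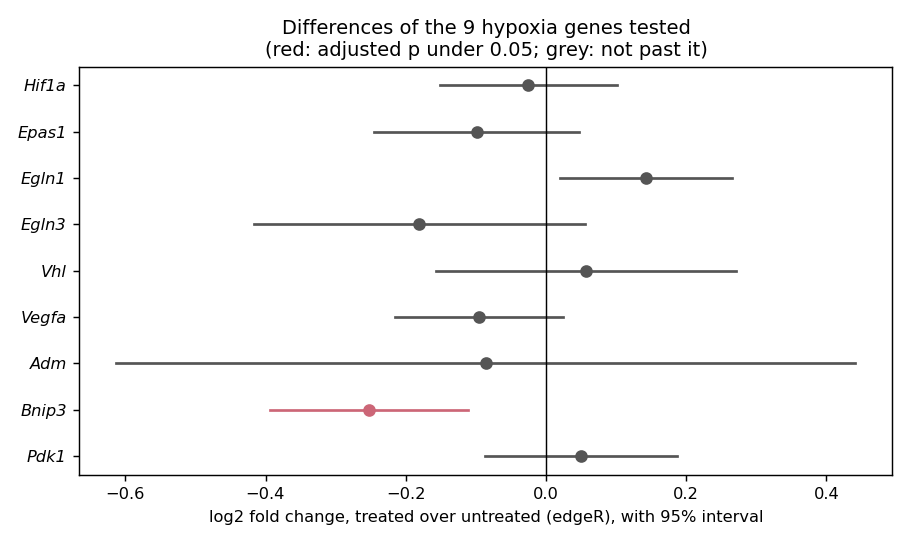
log2 fold change of the 9 hypoxia genes tested, treated over untreated, as points with 95% intervals for single genes on the x axis, from edgeR. Bnip3, in red at -0.25, is the 1 gene past an adjusted p of 0.05, and the intervals of the other genes except Egln1 include 0.

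Bnip3 (ENSMUSG00000078566, chromosome 7, 138890836 to 138909519, minus strand) was the member that fell. It encodes a protein of the outer mitochondrial membrane that acts in the removal of mitochondria by autophagy. Untreated kidneys had 159, 158 and 141 CPM, and treated kidneys had 118, 139, 135 and 122 CPM. Every treated value was below every untreated one, but untreated library 3 at 141 CPM and treated library 2 at 139 CPM were close. The means were 153 ± 10.2 CPM (SD, n = 3) and 128 ± 9.82 CPM (SD, n = 4). The log2 fold change was -0.25 ± 0.07, with an interval of -0.39 to -0.11 and an adjusted p of 0.0283 (edgeR). As a percentage the difference was -16.1%, with an interval of -23.9% to -7.45%.

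The direction of Bnip3 was the same in all 19 alternative analyses, and the call was lost in 10 of them, with adjusted p between 0.0070 and 0.492. Leaving out untreated library 1 or 2 gave an adjusted p of 0.120 or 0.0885, and leaving out treated library 1 or 4 gave 0.107 or 0.0720. Without both untreated libraries 1 and 2, the pair with a low short non-coding share, the log2 fold change was -0.14 with an adjusted p of 0.492, with 1 untreated library left. The numbers in the library names, called index numbers here, fall into 2 ranges. The labels do not say what these numbers stand for, and the split into ranges is a choice made here. The higher range holds untreated libraries 1 and 2 and treated library 1. Within that range the difference in mean log2 CPM was -0.42, and in the other range, with 1 untreated and 3 treated libraries, it was -0.10. With the range as a block the log2 fold change stayed at -0.25 with an adjusted p of 0.0675. On rescaled TPM the log2 fold change was -0.20 and the adjusted p 0.433 (limma). Bnip3l, the closely related mitochondrial receptor gene, had a log2 fold change of -0.09 ± 0.05 and an adjusted p of 0.367. Whether Bnip3 and Bnip3l differ in response was not tested.

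**Figure D4:**
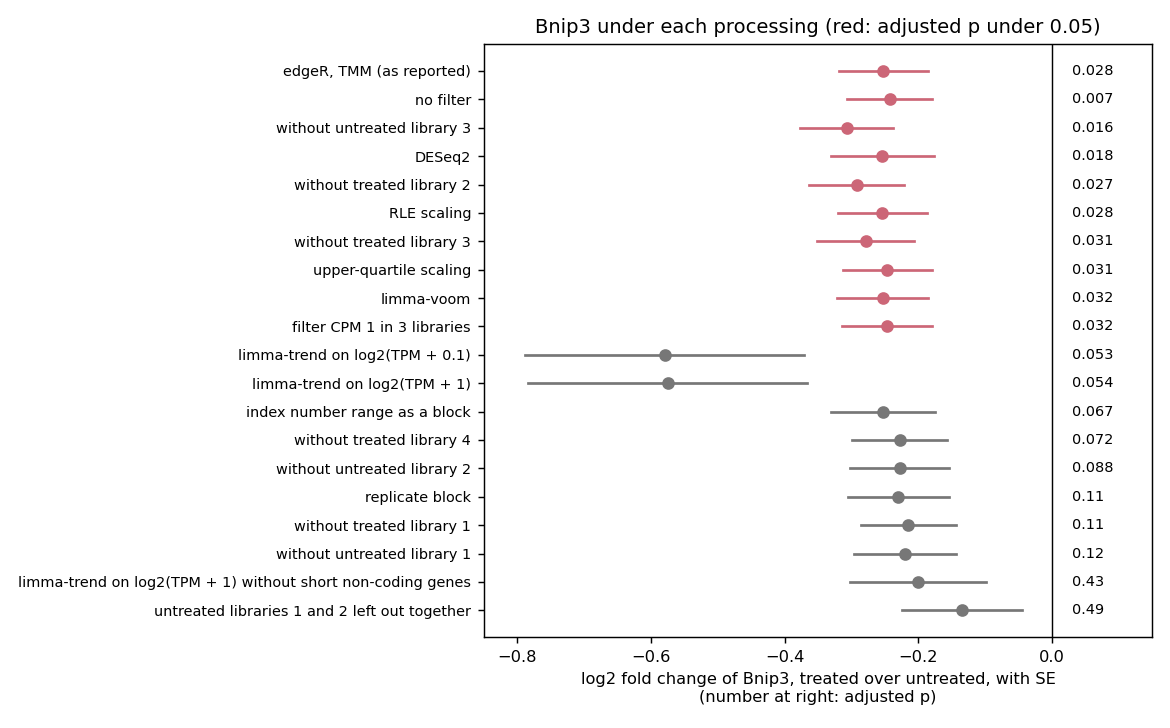
log2 fold change of Bnip3 with its SE on the x axis under the reported analysis and each of the 19 alternatives, with the adjusted p at the right. Red points pass an adjusted p of 0.05; all 20 points lie below 0, and 10 alternatives miss the threshold.

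Pdk1 and Ankrd37 complete the targets. Pdk1 (ENSMUSG00000006494, chromosome 2, 71873224 to 71903858, plus strand) encodes a kinase that limits the entry of pyruvate into the mitochondrial citric acid cycle. Its 51.7, 49.4 and 52.0 CPM in untreated and 52.7, 56.9, 49.7 and 52.0 CPM in treated kidneys overlapped. The log2 fold change was 0.05 ± 0.06, with an interval of -0.09 to 0.19 and an adjusted p of 0.735 (edgeR). Ankrd37 (ENSMUSG00000050914, chromosome 8, 45996902 to 46005707, minus strand) encodes an ankyrin repeat protein and is known as a gene strongly induced in low oxygen. It had 3, 1 and 2 counts in untreated and 2, 7, 5 and 9 counts in treated kidneys and was too low to enter the test. The groups overlapped at 2 counts. Ankrd37 also overlaps Ufsp2 and Lrp2bp on the opposite strand, and Ufsp2 had up to 558 counts in a library. The strand setting of the counting is not given in the sources used here, so the origin of these few counts is uncertain.

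Promoter sequences are shown for the gene that fell (Bnip3), the member with the lowest level (Ankrd37), a factor gene (Hif1a) and the secreted factor gene with the highest level (Vegfa), because the factors bind promoter DNA at a short core. The core of the hypoxia response element was searched as ACGTG or GCGTG on both strands in the 250 bases before the transcription start, from RefSeq on GRCm38.p6. Matches are in capitals, 5′ to 3′ on the strand of the gene, so CACGT and CACGC are matches on the other strand. CACGTG is a match on both strands and is also the E-box of other transcription factors. The windows are chr7:138909507-138909756 (minus strand) for Bnip3, chr8:45999851-46000100 (minus) for Ankrd37, chr12:73907617-73907866 (plus) for Hif1a and chr17:46032378-46032627 (minus) for the first listed start of Vegfa.
Bnip3: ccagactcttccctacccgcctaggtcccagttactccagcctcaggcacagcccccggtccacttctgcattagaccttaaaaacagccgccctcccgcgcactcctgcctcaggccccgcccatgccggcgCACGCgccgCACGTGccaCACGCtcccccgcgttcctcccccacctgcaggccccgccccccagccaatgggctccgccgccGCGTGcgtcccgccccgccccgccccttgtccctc
Ankrd37: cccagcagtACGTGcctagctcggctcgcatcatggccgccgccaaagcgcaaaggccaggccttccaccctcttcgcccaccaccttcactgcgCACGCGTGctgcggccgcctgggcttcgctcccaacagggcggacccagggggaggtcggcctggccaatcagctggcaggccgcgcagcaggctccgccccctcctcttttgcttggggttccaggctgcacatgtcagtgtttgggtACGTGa
Hif1a: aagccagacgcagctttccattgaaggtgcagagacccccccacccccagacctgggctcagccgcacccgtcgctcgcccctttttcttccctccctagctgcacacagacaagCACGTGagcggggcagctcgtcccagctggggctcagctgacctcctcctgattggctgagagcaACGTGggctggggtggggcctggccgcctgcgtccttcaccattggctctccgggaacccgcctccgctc
Vegfa: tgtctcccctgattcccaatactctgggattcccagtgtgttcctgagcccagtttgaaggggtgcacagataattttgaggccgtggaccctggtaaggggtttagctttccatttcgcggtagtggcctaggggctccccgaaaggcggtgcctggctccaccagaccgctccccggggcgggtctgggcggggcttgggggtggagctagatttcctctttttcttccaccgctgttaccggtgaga
The Bnip3 window holds 5 matches, of which 2 form a CACGTG, the Ankrd37 window 4 and the Hif1a window 3, again with a CACGTG. The Vegfa window printed here holds none. A second listed Vegfa start, with the window chr17:46025164-46025413 (minus), has 2 matches, GCGTG and ACGTG, 218 and 211 bases before the start. That window is not printed because it lies largely in annotated exons. RefSeq promoters were found for 9 of the 10 members, and 8 of these 9 had a match in at least 1 promoter. Among all genes with a listed promoter, 41.5% had a match, and 6.86% had CACGTG. A match is a run of letters and not a measured binding site.

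The other genes of the pathway moved in both directions. Of 108 tested genes in 4 lists of regulators and targets, 9 rose and 10 fell, with a median log2 fold change of 0.04. That is 17.6% against 7.16% of all genes tested. The lists were chosen with earlier results of these data known, so this share is not an independent result about the pathway. Of the 80 tested targets alone, 8 rose and 7 fell. Without untreated libraries 1 and 2, with 1 untreated library left, 7 of the regulators and targets rose and 8 fell. In the same kidneys the fat markers fell as given above. Of the collecting duct markers, 3 of 8 rose (301 to 324 CPM summed in untreated and 342 to 411 in treated kidneys). In the thick ascending limb 1 of 6 markers rose, among podocyte markers 1 of 7, and among tested erythrocyte markers 1 of 3. The collecting duct and erythrocyte lists share Slc4a1, so they are not separate readings. Of the proximal tubule markers 1 of 8 fell, and of the tested leukocyte markers 1 of 5. The endothelial, distal convoluted tubule, and fibroblast and pericyte markers gave 0 calls. Their part in the lists was not tested.

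**Figure D5:**
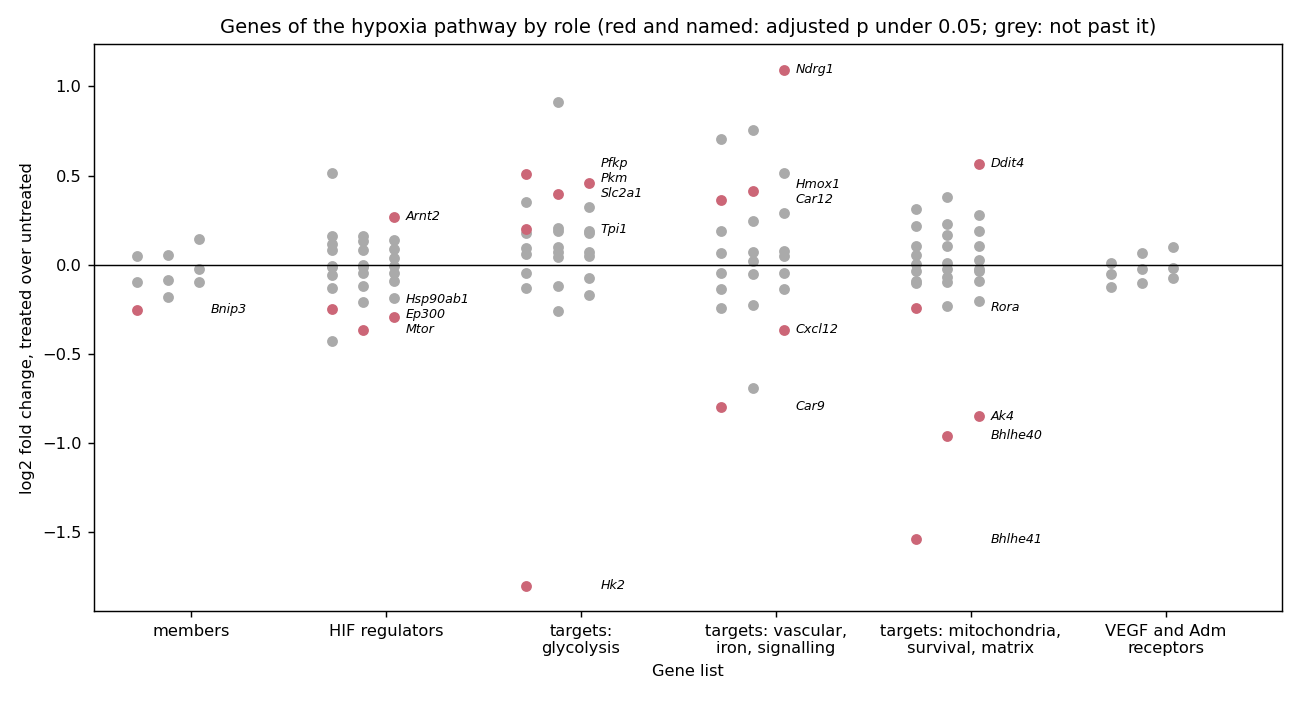
log2 fold change, treated over untreated, of every tested gene in the hypoxia lists, 1 point per gene and 1 column per list. Red, named points pass an adjusted p of 0.05; they lie on both sides of 0, from -1.80 for Hk2 to 1.09 for Ndrg1, and the receptor list has none.

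Of the 28 HIF regulators, 1 rose and 3 fell. Arnt2, a gene related to Arnt, rose from 58.7 ± 2.96 to 70.7 ± 4.10 CPM, with a log2 fold change of 0.27 ± 0.07 and an adjusted p of 0.0177. Ep300, which encodes a coactivator of the factors, fell from 201 ± 7.49 to 164 ± 8.82 CPM (-0.29 ± 0.06, adjusted p 0.00485). Mtor, the growth kinase gene, fell from 455 ± 37.0 to 353 ± 15.8 CPM (-0.37 ± 0.06, adjusted p 0.00199). Hsp90ab1, which encodes a chaperone, fell by 0.25 on the log2 scale with an adjusted p of 0.0387. Arnt2 missed the threshold when untreated library 2, untreated library 3, treated library 1 or treated library 4 was left out (0.0528 to 0.0650). The call of Hsp90ab1 was lost without any 1 library except treated library 3 (0.0650 to 0.137). On TPM without short non-coding genes no regulator was called, with an adjusted p of 0.286 for Ep300 and 0.0942 for Mtor (limma). The Arnt2 direction also turned on unscaled log2(TPM + 1), to -0.09, where the median gene stood at -0.31. Arnt, Hif1an, which encodes the asparagine hydroxylase of the factors, and Cul2, a scaffold of the Vhl ligase, did not pass, with log2 fold changes of -0.06, -0.01 and 0.08. Hif3a, a further alpha subunit gene at 1.75 CPM in untreated and 1.296 CPM in treated kidneys, did not pass either (-0.43 ± 0.27).

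Of the 26 glycolysis targets, 4 rose and 1 fell, with a median of 0.10. At an unadjusted p under 0.05 in edgeR, 12 were higher and 1 was lower. The same counts were 3 and 5 for the regulators, 8 and 4 for the vascular, iron and signalling targets, and 5 and 6 for the mitochondria, survival and matrix targets. The share of all tested genes at this unadjusted threshold was not counted, so none of these counts can be read as a shift of its list. Groups did not overlap in 12 of the 26 glycolysis targets, beside 18.6% of all genes tested. Pfkp, a phosphofructokinase gene, rose from 27.1 ± 1.28 to 38.5 ± 0.494 CPM (0.51 ± 0.07, adjusted p 0.000192). It overlaps Pitrm1 on the opposite strand, which had up to 1104 counts. Pkm, for the last step of glycolysis, rose from 164 ± 1.33 to 225 ± 13.7 CPM (0.46 ± 0.06, adjusted p 0.000121), and Slc2a1, a glucose transporter gene, from 35.8 ± 0.624 to 47.1 ± 4.01 CPM (0.40 ± 0.07, adjusted p 0.00281). Tpi1 rose by 0.20 with an adjusted p of 0.0454, a call lost without any 1 library except untreated library 2 (0.0618 to 0.131). On unscaled log2(TPM + 1) Tpi1 stood at -0.16. Without untreated libraries 1 and 2 together, with 1 untreated library left, 2 of the glycolysis targets rose, and Slc2a1 had an adjusted p of 0.0539. Hk2, a hexokinase gene low in these kidneys, fell from 2.01 ± 0.582 to 0.565 ± 0.272 CPM (-1.80 ± 0.36, adjusted p 0.00532). Ldha and Pgk1, long known as targets of HIF1A, did not pass, at 0.05 and 0.07. Pgk1 had counts that were not whole in all 7 libraries, which in estimated counts marks reads shared with other genes. Pkm had such counts in 2 libraries and Bnip3 in 1.

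Of the 24 tested vascular, iron and signalling targets, 3 rose and 2 fell. Ndrg1, a stress-responsive gene known to be induced in low oxygen, stood at 1473, 1105 and 1348 CPM in untreated and at 2956, 2812, 2628 and 2771 CPM in treated kidneys. Every treated value was well above every untreated one, with a log2 fold change of 1.09 ± 0.09 and an adjusted p of 1.38e-06 (edgeR). The carbonic anhydrase genes went opposite ways. Car12 rose from 234 ± 1.94 to 301 ± 30.2 CPM (0.36 ± 0.07, adjusted p 0.0037), and Car9 fell from 9.50 ± 1.40 to 5.49 ± 1.68 CPM (-0.80 ± 0.21, adjusted p 0.0357). Car9 missed the threshold when untreated library 1, untreated library 3, treated library 1 or treated library 2 was left out (0.0816 to 0.133), and Car12 without both untreated libraries 1 and 2 (0.130, with 1 untreated library left). Car12 stood at -0.0067 on unscaled log2(TPM + 1). Hmox1, for heme breakdown, rose by 0.41 ± 0.09 (adjusted p 0.0099), and Cxcl12, a chemokine gene, fell by 0.36 on the log2 scale (adjusted p 0.00213). The Hmox1 call was lost in 3 of the 19 alternative analyses. On TPM without short non-coding genes only Ndrg1 of this list was called, and Cxcl12 had an adjusted p of 0.0840 (limma). Epo, the gene of erythropoietin, had 1, 0 and 1 counts in untreated and 0 in each treated kidney, so no difference was detectable at this depth. Angptl4 varied widely, between 36.2 and 79.1 CPM over all libraries, and did not pass (-0.14 ± 0.34).

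Of the 30 tested targets acting in mitochondria, survival and matrix, 1 rose and 4 fell. Ak4, for a mitochondrial adenylate kinase, stood at 609, 576 and 662 CPM in untreated and at 313, 324, 407 and 323 CPM in treated kidneys. The groups stood far apart, with a log2 fold change of -0.85 ± 0.09 and an adjusted p of 4.47e-05 (edgeR). Its counts, like those of Pgk1 and Bnip3l, were not whole in any library. The transcriptional repressor genes Bhlhe40 and Bhlhe41, which also act in the circadian clock, fell together. Bhlhe41 went from 8.88 ± 1.53 to 3.04 ± 0.247 CPM (-1.54 ± 0.16, adjusted p 1.4e-05). Bhlhe40 went from 153 ± 24.5 to 78.5 ± 12.3 CPM (-0.96 ± 0.16, adjusted p 0.0167), a call lost without untreated library 2 (0.0593) or treated library 2 (0.0547). Rora, a nuclear receptor gene, fell by 0.24 on the log2 scale (adjusted p 0.0113). Ddit4, an inhibitor of mTOR signalling, rose from 9.35 ± 2.46 to 13.9 ± 1.02 CPM (0.57 ± 0.14, adjusted p 0.0226), a call lost when untreated library 2, untreated library 3, treated library 1 or treated library 4 was left out (0.0558 to 0.0990). Hilpda, a lipid droplet gene, did not pass (0.38 ± 0.34).

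Adm and Egln3 were the tested members that ranged most over the 7 libraries, by 1.17 and 0.55 in log2 CPM. The genes most like Adm, by root-mean-square difference of centred log2 CPM over 7 libraries, were Pstpip2 (0.154), Samsn1 (0.171) and Krt15 (0.174). Those most like Egln3 were Usp30 (0.0585), Abca4 (0.0608) and Fah (0.0646). None of these 6 genes belongs to the hypoxia lists.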

How the data were processed

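RNA of 7 kidneys was read from 2 deposited tables of gene level values. The authors deposited estimated counts per gene, also called expected counts, and TPM values. Per the submitters' processing notes the tools included Trim Galore 0.6.7, STAR 2.7.10a, RSEM 1.3.1 and Salmon 1.10.1, with the builds GRCm38 and mm10. Not given in the sources used here were their roles, the annotation release and the strand setting. Per the labels' protocols, ribosomal RNA was depleted and stranded libraries had 10 amplification cycles.

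Of the count values, 3.61% were not whole, and all were rounded. The fit in edgeR 4.0.16 (TMM scaling, filterByExpr, robust quasi-likelihood F test, R 4.3.3) used all 7 libraries, no covariate and a Benjamini-Hochberg threshold of 0.05 over 15399 genes. It was tested on simulated data. The SE is the size of the log2 fold change over the square root of F. CPM uses library sizes scaled by TMM. TPM was rescaled without non-coding genes whose median transcript length was under 400 nt. Alternatives used DESeq2 1.42.0, limma 3.58.1, other scalings and filters, blocks and left-out libraries; limma-trend ran on log2(TPM + 1) and log2(TPM + 0.1). Gene positions are from GENCODE M21, which held 45143 of 45706 gene IDs.

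The members and lists were chosen with earlier results of these data known. Besides the members, the text names 17 pathway genes named whatever their result, per list up to 5 genes per direction with the lowest p past the threshold, and 3 neighbours each of the 2 members ranging most.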

Additional observations from a re-analysis of the deposited data

Results flagged for a closer look

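Ak4 in treated library 3, at 407 CPM, was the highest of the 4 treated kidneys and stood apart from the other treated values of 313 to 324 CPM. The gap to the nearest value was 0.881 of the range of the group, above Dixon's 95% critical value for 4 samples. This check was made on 42 genes, and chance gives such a gap in about 1 of 20 groups. Untreated values were 576 to 662 CPM, so treated library 3 was still below each of them.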

How the results depend on the processing

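Against 1102 genes called, 280 were called on log2(TPM + 1) without short non-coding genes, 556 without untreated libraries 1 and 2 (1 untreated library left, with the spread taken from the treated group), and 692 to 1103 with 1 library left out. Bnip3 was the 1 lower member; 0 were lower with the index range block, both unscaled TPM analyses, TPM without short non-coding genes or without untreated libraries 1 and 2, and 0 to 1 with 1 library left out. Replicate numbers did not pair the kidneys (correlations of deviations 0.03, -0.07 and 0.0027), and with them as a replicate block 809 genes and 0 members were called, with Bnip3 at -0.23 (adjusted p 0.106); of the regulators and targets 7 rose and 8 fell. Of the regulators and targets, 9 rose as reported, against 1 on log2(TPM + 0.1), 1 on log2(TPM + 1), 3 without short non-coding genes and 6 to 11 with 1 library left out. Of them 10 fell as reported, against 18, 18 and 4 on the same TPM scales and 7 to 11 with 1 library left out.

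On log2(TPM + 0.1) and log2(TPM + 1) the median gene was at -0.37 and -0.31, and these directions turned: Egln1 (-0.22, -0.22), Vhl (-0.31, -0.28), Pdk1 (-0.35, -0.33), Cul2 (-0.22, -0.21), Ldha (-0.33, -0.33), Pgk1 (-0.30, -0.30), Hilpda (-0.0107, -0.0121), Kdr (-0.27, -0.26), Arnt2 (-0.0975, -0.0923), Tpi1 (-0.16, -0.16) and Car12 (-0.0066, -0.0067). With the index range block Vhl was -0.0207, Adm 0.038 and Egln2 0.0021. Without untreated libraries 1 and 2, Hif1a was 0.0795, Adm 0.0733, Angptl4 0.38 and Egln2 0.0048. Egln2 was 0.0278 and Hif1an 0.0256 on TPM without short non-coding genes, 0.0004 and 0.0015 with no filter, and Egln2 0.0052 with the replicate block. With 1 library left out, ranges that cross 0 were -0.0737 to 0.0344 for Hif1a, -0.0028 to 0.14 for Vhl, -0.27 to 0.23 for Adm, -0.0304 to 0.0064 for Hif1an, -0.0617 to 0.0539 for Egln2, -0.40 to 0.0772 for Angptl4 and -0.23 to 0.0216 for Calcrl; none of these genes was called as reported. The cause of these shifts was not tested. Low counts limit Adm, Hk2, Ankrd37 and Epo, and Adm also spread widely between kidneys.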
